A study of Rattus norvegicus with 8 samples.

Results

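Hedgehog signalling was examined in the rat ovary through 8 genes chosen by name: the ligand genes Ihh (Indian hedgehog) and Dhh (desert hedgehog), the receptor genes Ptch1 (patched 1) and Smo (smoothened), the transcription factor genes Gli1, Gli2 and Gli3, and Hhip, which encodes a ligand-binding inhibitor at the cell surface. A probe was taken where its gene name on the array was that of a member. This gave 10 probes for 7 of the 8 genes, among 30350 probes with a usable signal. No probe carried the name or a RefSeq accession of Hhip, which was not analysed here. Ihh, Dhh and Gli2 had 2 probes each, Ptch1, Smo, Gli1 and Gli3 had 1, and each of the 10 probes was spotted 2 times per array.

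Whole ovaries of female rats were compared on 1-colour Agilent expression arrays, 4 labelled PMSG and 4 labelled control. PMSG (pregnant mare serum gonadotropin) acts mostly like follicle-stimulating hormone and makes ovarian follicles grow. According to the labels, treated animals were given a subcutaneous dose of 50 IU at 26 days of age and controls the vehicle, albumin phosphate buffer, in a volume of 0.2 ml for either group, and ovaries were removed after 48 h, at 28 days. The titles of the control samples call them a reference without treatment. The labels name no strain or genotype and do not say whether replicates were separate animals, so the p-values measure the spread between these samples. In whole ovaries, fewer cells of a type and less RNA per cell cannot be told apart.

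In the Hedgehog pathway a secreted ligand binds PTCH1, which otherwise holds SMO inactive. Released SMO acts through the primary cilium and lets the GLI factors switch on target genes, of which Gli1, Ptch1 and Hhip are themselves the best known. In the ovary the ligands Ihh and Dhh are made by granulosa cells of growing follicles, while Ptch1 and Gli1 are expressed mainly in the surrounding theca and its precursors, and this route takes part in forming the theca.

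Gonadotropin is known to raise Lhcgr (the LH receptor), Cyp11a1 (steroid synthesis) and Star (cholesterol import) in the ovary, but here their log2 differences, PMSG minus control, were -1.93, -3.36 and -2.75. The Star value is that of its brighter probe, where PMSG array 2 was at 3.81 and the others of its label from 0.99 to 1.92. The second Star probe gave -2.05. Directions below therefore follow the sample labels, which Lhcgr, Cyp11a1 and Star go against. Amh, the granulosa gene of anti-Mullerian hormone, was higher by 3.03 and the theca gene Insl3 by 2.60. Neither is taken here as going with the labels. All 5 genes passed the threshold (limma adjusted p from 2.32e-04 to 0.00541). Array signal at the 75th percentile ran from 769 to 1103, and from 80.8% to 84.6% of probes were well above background. All levels are log2 signals minus the array's 75th percentile. A difference passed where limma's p, after Benjamini-Hochberg adjustment over the 25303 tested probes, was under 0.05.

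The 4 probe sequences that matter most for reading the values are those of the members that passed the test, Gli1 and Ptch1, and those of the 2 Ihh probes, whose differences had opposite signs. They come from the array files, 5′ to 3′. The Gli1, Ptch1 and dimmer Ihh probes are given whole, and the brighter Ihh probe by its last 30 bases, in which the capitals mark a polyadenylation signal hexamer.
Gli1: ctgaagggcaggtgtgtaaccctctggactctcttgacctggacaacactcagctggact
Ptch1: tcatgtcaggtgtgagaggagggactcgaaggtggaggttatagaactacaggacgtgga
Ihh, dimmer probe: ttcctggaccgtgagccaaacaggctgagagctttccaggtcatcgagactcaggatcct
Ihh, brighter probe: tgttttggtctttcttttgtAATAAAaatt
Per the file headers the build is rn4. The Gli1 probe lies at chr7:67288638-67288697 on the minus strand and the Ptch1 probe at chr17:7142363-7142422 on the plus strand. The dimmer Ihh probe lies at chr9:74288362-74288421 and the printed part of the brighter one at chr9:74287130-74287159, both on the minus strand. The hexamer is at base 51 of the brighter Ihh probe, and none of the other 9 member probes held one. The brighter Ihh probe had 36.7% G and C bases and the dimmer one 55.0%. Exon and UTR boundaries in rn4 were not analysed here.

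Of the 7 members tested, 2 rose in arrays labelled PMSG, Gli1 and Ptch1, none fell, and 5 did not pass. Of all tested probes, 34.2% passed in either direction, 17.6% as higher and 16.6% as lower, so 2 of 7 members (28.6%) is a share near that of the whole array for either direction. The groups did not overlap for the same 2 genes, while they did not overlap for 36.6% of all tested probes, 17.9% with PMSG higher and 18.6% with PMSG lower. The median log2 difference of the 7 members was 0.31, against 0.11 over all tested probes, and 6 of the 7 had a positive sign. The shift of 0.11 depended on the scaling, at 0.03 under quantile normalization and -0.05 under median centring. So did the count of positive signs: Gli3 was at -0.21 under quantile normalization. Under median centring Gli3 was at -0.06 and Dhh at 0.00.

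Gli1, a GLI activator whose transcript is widely used as a readout of the pathway, had the largest difference of the members. Its level was -2.71, -2.18, -2.57 and -2.43 on control-labelled arrays 1 to 4 and -1.72, -1.70, -1.71 and -1.27 on PMSG-labelled arrays 1 to 4. Every array labelled PMSG lay above every control-labelled array, with PMSG array 4 highest. The group means were -2.47 ± 0.23 (SD, n = 4) for control and -1.60 ± 0.22 (SD, n = 4) for PMSG. The log2 difference was 0.87 (SE 0.15, 95% interval 0.51 to 1.23, limma adjusted p = 0.00349), a 1.83-fold higher level. Gli1 passed under all 20 alternative settings, with differences from 0.70 to 0.97 and limma adjusted p from 0.00189 to 0.0328, and without PMSG array 4 it was 0.76. On the slide the arrays stood in 2 rows, each with 2 arrays per label, and the difference was 0.60 within row 1 and 1.14 within row 2.

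Ptch1, the ligand receptor and also a target of the pathway, was the second member to pass. Its level was -5.54, -5.01, -5.61 and -5.07 on control-labelled arrays 1 to 4 and -4.39, -4.55, -4.18 and -4.93 on PMSG-labelled arrays 1 to 4. The groups did not overlap, but PMSG array 4, the lowest of its label, lay close to control arrays 2 and 4. The means were -5.31 ± 0.31 (SD, n = 4) and -4.51 ± 0.32 (SD, n = 4), a log2 difference of 0.79 (SE 0.21, 95% interval 0.32 to 1.27, limma adjusted p = 0.0187) or 1.73-fold. This probe was dim: 31.4% of probes on the array were dimmer, and its unscaled signal ran from 20.5 to 46.8, although it was well above background on all 8 arrays. The difference was 0.68 within slide row 1 and 0.91 within row 2. The call was lost under quantile normalization (0.55, limma adjusted p = 0.0556), with normexp background correction (0.34, 0.0509), without control array 1 (0.72, 0.0526) and with the replicate number as a block (0.79, 0.0645), in a range of adjusted p from 0.00739 to 0.0645 over 20 alternatives.

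The promoter of Ptch1 is shown because this gene moved in the same direction as Gli1, whose protein binds the motif GACCACCCA. Promoters of 250 bases before to 50 after the start were found for 6 of the 8 members in a RefSeq table of the GRCr8 build, and both strands were searched for these 9 letters. Those of Ihh and Gli1 were not found there and so were not searched. Among the 6, only that of Ptch1 held them. Of 33469 promoters of the same length, 129 (0.385%) did. The 250 bases before the Ptch1 start are at chr17:1555321-1555570 on the plus strand of GRCr8, and the capitals mark the motif, read here from the opposite strand, at chr17:1555399-1555407.
Ptch1 promoter: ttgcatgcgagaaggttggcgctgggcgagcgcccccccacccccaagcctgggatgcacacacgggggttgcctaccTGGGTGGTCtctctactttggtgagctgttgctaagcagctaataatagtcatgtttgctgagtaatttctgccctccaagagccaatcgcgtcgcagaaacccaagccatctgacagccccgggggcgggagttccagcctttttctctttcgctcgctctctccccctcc
The first base of the match lies 172 bases before the start. A match of letters describes the sequence and does not show that a factor was bound there. Whether GLI1 acted on Ptch1 in these ovaries was not tested.

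**Figure D1:**
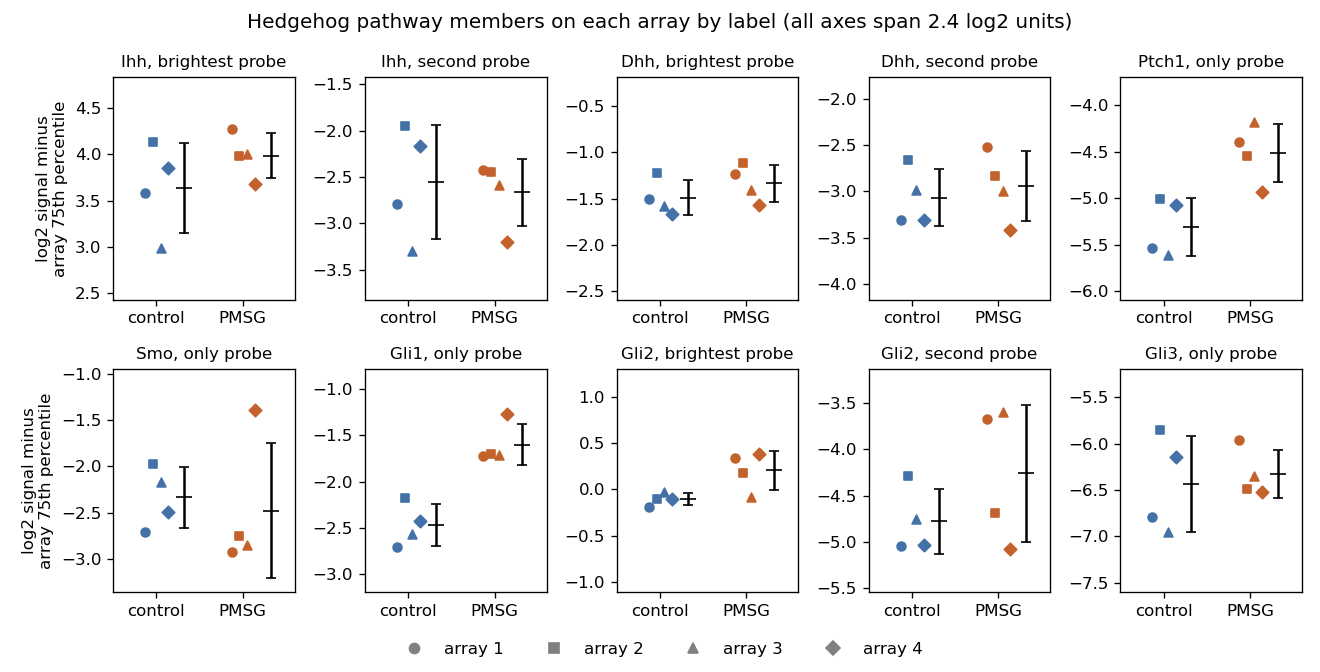
Each panel shows 1 member probe on the 8 arrays, as log2 signal minus the array's 75th percentile, with a symbol per array number and, in black, the mean and SD of each label (n = 4). Gli1 and Ptch1 are the panels in which the labels do not overlap, and Smo has 1 PMSG-labelled array at -1.39 far above the other 3.

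Neither ligand gene of the granulosa cells passed the test. The brighter Ihh probe, whose signal exceeded that of 94.9% of probes, gave 3.58, 4.13, 2.99 and 3.85 for control arrays 1 to 4. The PMSG-labelled arrays gave 4.27, 3.98, 4.00 and 3.68. The groups overlapped, and the lowest value of all was that of control array 3. The groups differed by 0.34 (SE 0.25, limma adjusted p = 0.301), and its 95% interval from -0.22 to 0.91 leaves room for a difference as large as that of Gli1. It was 0.00 within slide row 1 and 0.69 within row 2. It was 0.13 without control array 3, 0.51 without control array 2 and 0.12 as the mean of both probes, with limma adjusted p from 0.149 to 0.759 over 20 alternatives. The dimmer Ihh probe had control levels of -2.79, -1.95, -3.30 and -2.17 and PMSG levels of -2.43, -2.45, -2.59 and -3.20, with a difference of -0.11 (SE 0.31, limma adjusted p = 0.797). On both Ihh probes control array 2 was the highest and control array 3 the lowest of the control-labelled arrays, and PMSG array 4 was the lowest of its label.

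Dhh, the other granulosa ligand, differed less than Ihh in absolute size on its brighter probe. That probe gave -1.50, -1.22, -1.58 and -1.66 for control and -1.23, -1.12, -1.41 and -1.57 for PMSG. The groups overlapped, and only PMSG array 2 lay above every control-labelled array. The difference was 0.16 (SE 0.14, 95% interval -0.16 to 0.49, limma adjusted p = 0.391), and it was 0.00 under median centring and between 0.09 and 0.25 with 1 array missing. The second Dhh probe, between -3.31 and -2.66 in control and between -3.42 and -2.52 in PMSG, had a difference of 0.12 (SE 0.22, limma adjusted p = 0.691).

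Smo, the membrane protein that passes the signal on, did not pass. Control-labelled arrays gave -2.71, -1.97, -2.17 and -2.49, and PMSG-labelled arrays gave -2.92, -2.75, -2.85 and -1.39. PMSG array 4 was the highest of all 8 arrays, whereas the other 3 of its label were the lowest. The difference was -0.14 (SE 0.35, 95% interval -0.95 to 0.66, limma adjusted p = 0.768), and without PMSG array 4 it was -0.50 (limma adjusted p = 0.0568, in a range from there to 0.993 over 20 alternatives).

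Gli2 and Gli3, the GLI factors through which the signal first reaches DNA, did not pass either. Gli2, on its brighter probe, stood at -0.19, -0.10, -0.03 and -0.10 in control and at 0.34, 0.18, -0.08 and 0.38 in PMSG. Only PMSG array 3 lay within the control range. The difference was 0.31 (SE 0.12, 95% interval 0.03 to 0.59, limma adjusted p = 0.0834). It passed without PMSG array 3 (0.40, limma adjusted p = 0.0186) and with array weights (0.31, 0.0460), in a range up to 0.570. The second Gli2 probe differed by 0.51 (SE 0.36, limma adjusted p = 0.288), with levels from -5.04 to -4.29 in control and from -5.08 to -3.60 in PMSG.

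Gli3, which acts largely as a repressor when no ligand is present, was the dimmest member. Its probe was well above background on 2 control-labelled and 3 PMSG-labelled arrays, and only 18.7% of probes were dimmer. Levels were -6.79, -5.85, -6.95 and -6.15 in control and -5.96, -6.49, -6.35 and -6.52 in PMSG. Every PMSG value lay within the range of the control values. The difference of 0.11 (SE 0.26, 95% interval -0.49 to 0.71, limma adjusted p = 0.763) turned negative, to -0.21, under quantile normalization.

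**Figure D2:**
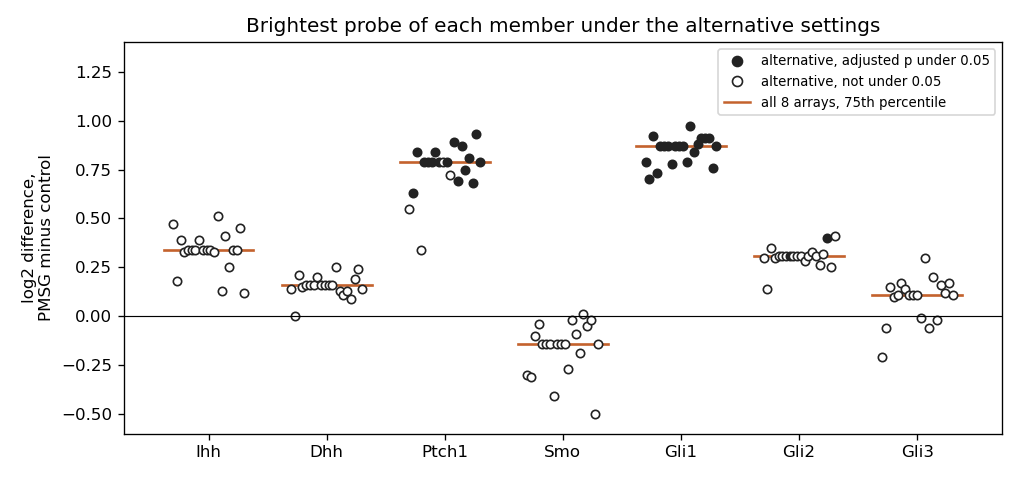
The vertical axis is the log2 difference of each member's brightest probe, PMSG minus control, with 1 point per alternative setting and an orange line for the value with all 8 arrays and 75th percentile scaling. Filled points passed at an adjusted p under 0.05: all 20 for Gli1, 16 of 20 for Ptch1, 2 of 20 for Gli2 and none for Ihh, Dhh, Smo and Gli3.

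The wider pathway was read from a list of 46 further genes, of which 39 had a probe and were tested. Of these, 10 rose and 5 fell in arrays labelled PMSG and 24 did not pass. The 10 include Cdon, which met the filter only through the arrays labelled PMSG. The 15 that passed are 38.5% of the 39, near the 34.2% of all tested probes, and the 10 that rose are 25.6%, against 17.6%. The median log2 difference was 0.20, against 0.11 over all tested probes. By role, in the order below, 60%, 50%, 31.2%, 40% and 36.4% passed, on 5, 2, 16, 5 and 11 tested genes. Each is to be read against the 34.2% of all tested probes. Beyond the 2 genes with the largest difference per role and Shh and Sufu, the genes below are named because they passed.

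Among 5 genes that make the ligand ready and release it, 3 rose and none fell. Scube3, a secreted protein that helps ligand leave the cell, rose from -5.80 ± 0.49 (SD, n = 4) to -4.74 ± 0.31 (SD, n = 4), by 1.06 (SE 0.26, limma adjusted p = 0.0150). With normexp background correction it was 0.40 and still passed (0.0284, in a range from 0.00354 to 0.0442 over 20 alternatives). Disp1, the transporter that releases lipid-bearing ligand, rose by 0.60 (0.00226), and Hhat, the enzyme that attaches palmitate to it, by 0.62 (0.0421). The groups overlapped for Hhat and not for Disp1. The Hhat probe, spotted 1 time per array, and the Scube3 probe were dim, with control means of -6.01 and -5.80. Both were well above background on all 8 arrays. Shh, the third ligand gene of the family, was at -6.42, -5.56, -5.76 and -5.72 in control and at -4.35, -4.96, -4.22 and -5.95 in PMSG. PMSG array 4 lay within the control range and the other 3 lay above it. The Shh difference of 1.00 (SE 0.38, limma adjusted p = 0.0778) passed without PMSG array 4 (1.35, 0.00611) and with array weights (1.21, 0.0152), in a range up to 0.177, and was 0.41 with normexp correction.

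Of the receptors beside PTCH1 and SMO, only Cdon and Lrp2 could be tested. Cdon, a co-receptor that binds ligand, rose, with levels of -6.70, -7.37, -6.48 and -7.31 in control and -5.66, -5.14, -5.72 and -5.93 in PMSG. The groups did not overlap. Only 1 of the 4 control-labelled arrays was well above background, so the change is given as at least 1.85-fold higher in arrays labelled PMSG. The probe met the filter of 4 arrays only through the arrays labelled PMSG. Its limma adjusted p of 0.00420 is therefore no separate support for the rise. The fitted log2 difference was 1.35, and 0.36 with normexp background correction, where it still passed (0.0270). The bound was taken without that correction and does not cover the value with it. For this bound, each array below background took the higher of the probe's own value and the lowest spot called well above background on that array. Lrp2, an endocytic receptor, differed by 0.93 on its brighter probe (SE 0.32, limma adjusted p = 0.0551) and by 0.14 on the other (0.734), and the mean of both gave 0.53 (0.199). It passed under 7 of 20 alternatives, among them leaving out PMSG array 3 (1.19, 0.0136), and its adjusted p reached 0.199 at most.

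Of 16 genes acting between SMO and the GLI proteins, 2 rose, 3 fell and 11 did not pass. Cul3, a ubiquitin ligase scaffold that acts on GLI proteins, rose from -2.64 ± 0.13 (SD, n = 4) to -1.64 ± 0.15 (SD, n = 4), by 1.01 (SE 0.11, limma adjusted p = 4.71e-04). Mgrn1, a ubiquitin ligase that lowers SMO at the cell surface, fell by 0.90 (SE 0.10, limma adjusted p = 4.06e-04). The groups overlapped for neither gene. Evc, a ciliary partner of SMO, rose by 0.70 (0.0290), and the kinase genes Gsk3b and Adrbk1 fell by 0.63 (0.0212) and 0.35 (0.0136). The Evc probe was dim, with a control mean of -6.04, but well above background on all 8 arrays. Sufu, the inhibitor that holds GLI proteins, was at -1.97, -2.21, -2.09 and -2.25 in control and -2.07, -0.86, -1.99 and -1.10 in PMSG. PMSG arrays 2 and 4 were high and the other 2 were near control, and the difference of 0.62 (SE 0.28, limma adjusted p = 0.120) did not pass.

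Of 5 genes of the primary cilium and its transport, 2 rose and none fell. Arl13b, a ciliary GTPase, rose by 1.07 (SE 0.17, limma adjusted p = 0.00206), and Ift172, a part of the transport particle, by 0.87 (SE 0.12, limma adjusted p = 0.00100). All 5 oviduct epithelium markers also rose, against 17.6% of all tested probes, and that epithelium carries motile cilia. Dnah5 was well above background on 2 control-labelled arrays and Muc1 on 3. Both of these markers therefore met the filter of 4 arrays only with arrays labelled PMSG. The summed level of the 5 markers (signal relative to the 75th percentile) ran from 2.05 to 3.30 in control and from 7.45 to 13.9 in PMSG. The part of such cells in the ciliary genes was not tested.

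Of 11 tested genes listed as targets of the pathway in other tissues, 2 rose, 2 fell and 7 did not pass. The 36.4% that passed is near the 34.2% of all tested probes. Mycn, a growth-promoting transcription factor, rose from -1.11 ± 0.18 (SD, n = 4) to 0.84 ± 0.27 (SD, n = 4), by 1.95 (SE 0.16, limma adjusted p = 1.35e-04). Igf2, a growth factor, rose by 1.59 (0.00203). Hsd11b1, an enzyme that regenerates active glucocorticoid, fell by 2.67, from 1.72 ± 0.17 (SD, n = 4) to -0.95 ± 0.12 (SD, n = 4) (SE 0.12, limma adjusted p = 1.69e-05), and Ccnd1, encoding cyclin D1, fell by 0.70 (0.0100). The median of the 11 was -0.07.

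**Figure D3:**
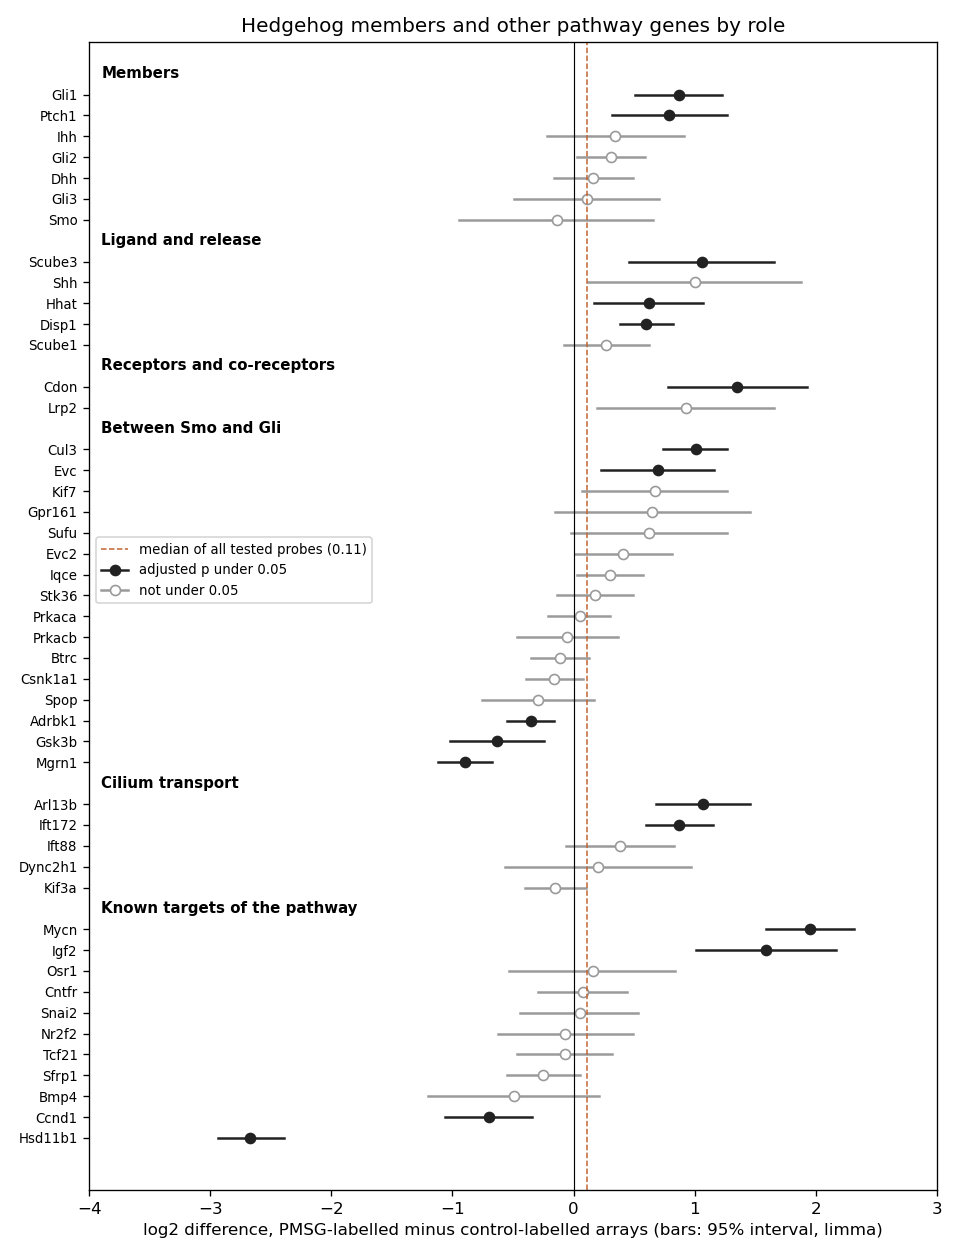
Points give the log2 difference, PMSG-labelled minus control-labelled arrays, of the 7 members and 39 other tested pathway genes by role, with 95% intervals from limma and filled points for an adjusted p under 0.05. Gli1 and Ptch1 lie to the right of the dashed line at 0.11, the median of all tested probes, and Hsd11b1 is the gene farthest to the left at -2.67.

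Cell type markers that moved with the labels stand beside Gli1 and Ptch1 as follows. Of all tested probes, 17.6% passed as higher and 16.6% as lower, and the counts are to be read against these shares. All 7 oocyte markers rose, with a summed level from 2.96 to 5.30 in control and from 10.3 to 22.3 in PMSG, and 4 of 5 fibroblast markers rose, from 121 to 143 in control and from 130 to 167 in PMSG. Of 7 theca markers 1 rose, Insl3, and 3 fell, Cyp11a1, Star and Lhcgr. All of these were already given above beside the labels and are no separate observation. The other theca markers did not pass: Cyp17a1 (-0.22), Hsd3b1 (0.07) and Nr5a1 (-0.36). The theca sums ran from 273 to 309 in control and from 134 to 216 in PMSG. Of 7 granulosa markers, 6 of them tested, 2 rose and 1 fell, with sums from 69.4 to 107 and from 64.7 to 85.8. The sums add unlogged signals and so follow the brightest genes. These were Inha (control mean log2 level 6.40) for granulosa, and Hsd3b1 (6.97) and Cyp11a1 (6.59) for theca. Of the markers of endothelium 4 of 7 fell, with sums from 20.3 to 23.7 and from 15.7 to 17.3. Of smooth muscle none of 5 passed, at 33.3 to 57.9 and 34.0 to 60.8, of leukocytes 4 of 5 rose, at 6.98 to 8.71 and 11.1 to 12.5, and of Schwann cells 3 of 5 rose, at 1.06 to 1.93 and 1.27 to 2.17. The aromatase gene Cyp19a1, a granulosa marker, was the only marker below background on all 8 arrays and is named for that reason. Its probe was matched by accession rather than by gene name, and whether that probe detects the transcript was not tested. The part of these cells in the Gli1 and Ptch1 values was not tested.

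The genes whose pattern over the 8 arrays was most like that of a member were found by the root-mean-square difference of log2 levels after each probe's mean was subtracted, among 14911 named probes well above background on all arrays. Nearest to Gli1 were Ltbp4 (0.113), Ulk4 (0.114) and Ccdc34 (0.121), against a spread of 0.476 of Gli1 about its own mean. Their log2 differences were 0.84, 0.79 and 0.90. Nearest to the brighter Ihh probe were Ccdc77 (0.128), Gja1 (0.165) and Nav2 (0.170), against a spread of 0.376, with differences of 0.24, 0.17 and 0.28. Gja1 encodes connexin 43, the gap junction protein between granulosa cells.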

How the data were processed

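Per the file headers, the authors extracted spot intensity with Agilent Feature Extraction 11.5.1.1, detrended and with surrogate values for dim spots, on arrays of 1 slide and 1 scan. The authors also deposited log2 values per probe, which match the scanner files' log2 signals once these are scaled to the 75th percentile, with no centring (column medians from -3.21 to -2.82). Per-sample columns left unused numbered 0. Here, control and outlier spots were dropped, log2 processed signals were averaged per probe, the 75th percentile was subtracted, and probes well above background in at least 0.5 of their spots on at least 4 of 8 arrays were tested by limma 3.58.1 (lmFit, then eBayes, without covariates; R 4.3.3). The brightest probe stood for a gene. The procedure was tested on simulated data. Alternatives covered scaling, background correction, the filter, the source of values, array weights, an intensity trend, slide row, the replicate block, the probe rule and each array left out. Members and lists were chosen with earlier results of these data known. The genes named are every member, the 2 largest differences per pathway role, Shh and Sufu, 5 genes that check the labels, the 3 most similar patterns for the ligand and the receptor or GLI gene with the largest difference, and others marked as named for their values. Listed genes without a probe under their name or accession (Hhip, Scube2, Boc, Gas1, Tulp3, Foxf1, Foxf2 and Foxl1) were not analysed here, and 1 listed gene is not reported here. With 4 arrays per group, precision is limited by their number.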

Additional observations from a re-analysis of the deposited data

Results flagged for a closer look

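In 4 of 42 groups of 4 values examined, 1 array stood far from the other 3, further than the critical value of Dixon's test (0.829) allows, as the share of the range taken by its gap to the nearest array. Chance gives about 1 in 20 groups, here 2.1. For Smo, PMSG array 4 was at -1.39 against -2.92 to -2.75 (gap 0.890 of the range). For Gli1, the same array was at -1.27 against -1.72 to -1.70 (gap 0.955). Both values were higher than those of the other arrays of that label, and Gli1 passed the test without this array. For Ift172, control array 4 was at -0.46 against -0.27 to -0.25 (gap 0.897). For Mycn, control array 2 was at -0.85 against -1.22 to -1.16 (gap 0.838).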

How the results depend on the processing

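The count of members that passed, 2, was 1 under quantile normalization, normexp background correction and the replicate block, each time because Ptch1 missed the threshold, and 3 with array weights, where Gli2 passed. Without any 1 array it lay between 1 and 3. It was 1 without control array 1, where Ptch1 missed it, and 3 without PMSG array 3, where Gli2 passed. The cause was not tested. The count of all probes that passed, 8658, was lowest without control array 4 (6552) and highest without PMSG array 4 (11382), and was 7346 with the replicate block. Higher probes made up 51.4% of those that passed, 34.5% under median centring and 61.3% without PMSG array 4. The 15 other pathway genes that passed numbered between 12 and 18 with 1 array missing, and were 11 with the replicate block and 19 with array weights. Deviations of same-numbered arrays correlated across probes at 0.0444, 0.0361, 0.183 and -0.0192. Arrays of different numbers were not compared, so these values cannot decide whether the numbers pair the arrays. Signs turned only for values that did not pass: Gli3 (-0.21 with quantile normalization, -0.06 with median centring, -0.06 to 0.30 without 1 array), the second Dhh probe (-0.03, -0.05, and -0.02 to 0.28), the second Ihh probe (-0.36 to 0.09 without 1 array) and Smo (-0.50 to 0.01). Of 415 recomputed values of member probes and named pathway genes, 388 kept their sign and side of the threshold.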
